A study of Saccharomyces cerevisiae with 16 samples.

Results

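The broad peaks of trimethylated histone H3 lysine 4 (H3K4me3) on the native yeast chromosomes were examined, a broad peak being an interval of at least 1500 bp on chromosomes I to XVI in the authors' peak list of a library. The 8 lists held 3044 such peaks among 30113 native peaks and 30753 peaks in all, and the other 27069 native peaks are called narrower. The series placed a synthetic human HPRT1 locus (HPRT1) or its reversed sequence (HPRT1R) in yeast to see what becomes of such DNA there beside the host's own genome. All strains were BY4741, a haploid laboratory strain of mating type a, and every group carried synthetic DNA, with no strain free of it. The 4 groups of 2 libraries were HPRT1 on a yeast artificial chromosome (YAC), HPRT1 integrated into the yeast genome, HPRT1R on a YAC and HPRT1R integrated. SC-Leu, a synthetic medium lacking leucine, was used for YAC strains and the rich medium YPD for integrated strains, both at 30 °C with 6 hours of growth after dilution, so that configuration and medium cannot be told apart. Whether a strain was a single clone, and whether replicates came from separate cultures, is not given in the sources used here, so p-values over libraries measure only their spread, which may be technical.

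H3K4me3 is laid down in yeast by COMPASS, a complex built around the methyltransferase Set1, which travels with RNA polymerase II early in transcription. The mark therefore lies over the promoter-proximal nucleosomes of transcribed genes. The yeast genome is compact, and neighbouring genes often share a short intergenic stretch. They may point away from each other (a divergent pair), follow each other on the same strand (tandem) or face each other (convergent). By the extraction protocol the assay was CUT&RUN, although the sample titles name ChIP. In CUT&RUN an antibody bound to chromatin directs a nuclease to release the DNA beneath it. In a population of cells, a mark present in fewer cells and a weaker mark in each cell cannot be told apart.

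Before any result, 2 libraries need a remark. The cell line entry for HPRT1 YAC replicate 2 names the HPRT1R YAC, whereas the title, the source name and the genotype all give HPRT1, and it was kept as HPRT1. HPRT1R YAC replicate 1 stood apart with the fewest native peaks (3377, against 3573 to 3963 in the others) and the lowest median fold. Depth is known only through the pileup, the number of overlapping fragments that the caller counted at a position. The expected pileup was recovered from fold and p-value at each peak, and a value near the lower end over the peaks of a library was taken. It ranged from 76.2 to 98.9 and was highest in HPRT1R YAC replicate 1. No total read number could be read from the lists.

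Broad peaks were a minority of intervals that held a larger share of the marked sequence. Broad peaks numbered 306 and 354 (HPRT1 YAC), 450 and 499 (HPRT1 integrated), 380 and 340 (HPRT1R YAC), and 339 and 376 (HPRT1R integrated). They made up 10.2% ± 2.09 (SD, n = 8) of the native peaks and 25.7% ± 3.53 of the bases under native peaks. The median width of a broad peak lay between 1796 and 1889.5 bp across libraries, while all native peaks together had medians of 540 to 699 bp. Most broad peaks were therefore close to the lower limit, and only 106 to 199 per library reached 2000 bp and 9 to 23 reached 3000 bp. The widest interval of each library measured 3956 to 4568 bp.

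Width went together with height. The authors' fold at the summit, the pileup over the caller's expectation, had a median of 2.88 ± 0.263 in broad and 2.07 ± 0.139 in narrower peaks (SD, n = 8 libraries). The median summit pileup was 269 ± 11.5 fragments in broad and 185.5 ± 7.82 in narrower peaks. Across the peaks of a library, Spearman's rank correlation between width and fold was 0.659 to 0.691, over 3377 to 3963 peaks that share a library and its depth. These values come from the same peaks as the width and describe how the members were chosen, so no test was made of them.

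**Figure D1:**
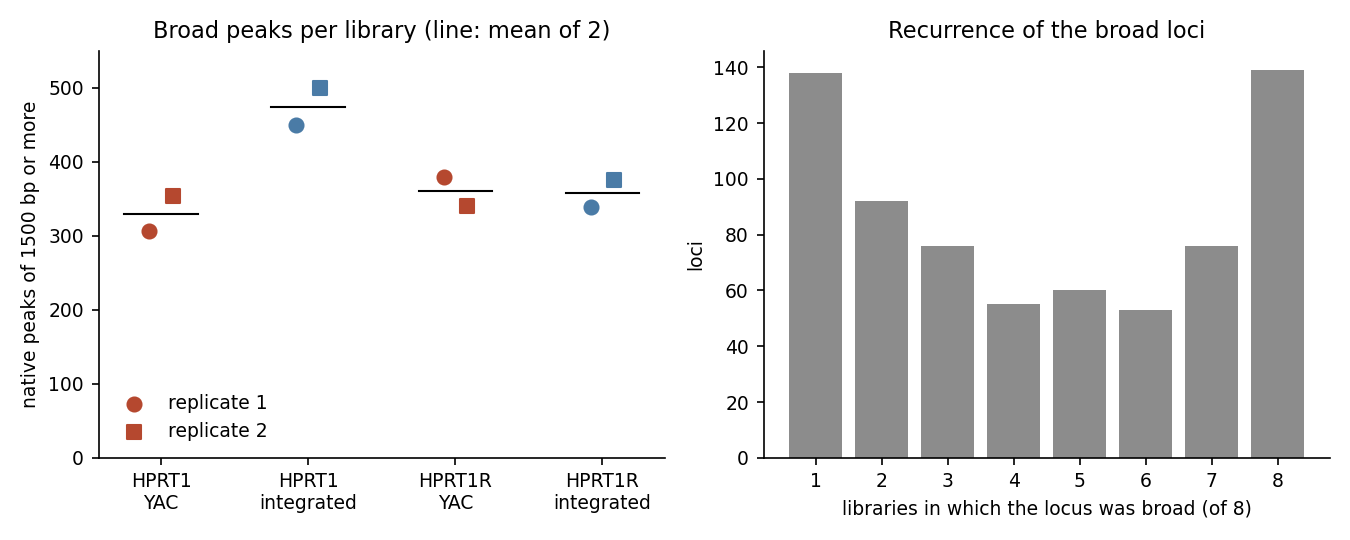
Number of broad native peaks in each of the 8 libraries by group (left; circle, replicate 1; square, replicate 2) and number of loci by how many libraries held a broad peak there (right). The HPRT1 integrated libraries stood highest with 450 and 499 broad peaks, and loci were most numerous at the extremes, 138 broad in 1 library and 139 in all 8.

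A typical broad peak covered the starts of at least 2 protein-coding genes, whereas a typical narrower peak covered the start of 1. In broad peaks, 53.1% ± 1.76 (SD, n = 8) covered 2 starts and 35.7% ± 4.31 covered 3 or more. A further 9.59% ± 2.15 covered 1 start and 1.57% ± 1.88 covered none. In narrower peaks the shares were 15.8% ± 2.93 with 2 starts, 0.517% ± 0.123 with 3 or more, 58.2% ± 3.06 with 1 and 25.5% ± 5.86 with none. The most starts beneath an interval were 6 for a broad and 3 for a narrower peak. A wider interval holds more starts by its length alone, so these shares are a description.

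Relative to width, broad peaks held fewer starts, at 1.16 ± 0.0412 starts per kb against 1.42 ± 0.0795, a difference of -0.258 starts per kb. The density divides by the width that chose the peaks, so it is a description, and among peaks with at least 1 start the difference was -0.528. The number of starts within 750 bp of the peak midpoint, a window of the same size for every peak, was tested over the 8 libraries, as broad minus narrower within each, by flipping signs in an exact two-sided permutation test. It was higher in broad peaks. The window held 1.88 ± 0.0537 starts in broad and 1.29 ± 0.0167 in narrower peaks, a difference of 0.591 starts (exact adjusted p = 0.00781). The difference had this direction in 8 of 8 libraries, and with the window placed around the summit it was 0.393 starts, an alternative added after the data were seen. The p is the smallest that 8 libraries allow, and since the libraries measure the same genome again, it speaks of repeatability rather than of independent loci. The window lies inside every broad peak and reaches past every narrower peak. The count in it is therefore not independent of the width that chose the peaks. Without HPRT1R YAC replicate 1 the difference in the window was again 0.591 starts.

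Divergent pairs lay beneath most broad peaks. A divergent pair alone made up 36.4% ± 3.92 (SD, n = 8) of broad peaks and a divergent pair with at least 1 further start 33.3% ± 3.48. Tandem starts alone made up 18.5% ± 3.78, and other arrangements 0.722% ± 0.397. In narrower peaks the same classes held 13.9% ± 2.51, 0.443% ± 0.129, 1.72% ± 0.435 and 0.236% ± 0.0314. Reading along the chromosome with C for a gene on the bottom strand and W for the top strand, the most frequent arrangement was CW, in 1100 of the 3044 broad peaks. The arrangements CCW in 398 and CWW in 384 peaks came next, each of them a divergent pair with a tandem neighbour. WW occurred in 280 and CC in 222 peaks.

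With the window of fixed size, 57.4% ± 2.76 of broad peaks and 24.7% ± 1.32 of narrower peaks had both starts of a divergent pair within 750 bp of their midpoint. The share in broad peaks was 57.8% and 59.6% (HPRT1 YAC), 57.8% and 54.3% (HPRT1 integrated), 52.1% and 59.4% (HPRT1R YAC), and 59.9% and 58.0% (HPRT1R integrated). The kinds did not overlap, the highest share in narrower peaks being 27.7%. The difference of 32.6 percentage points had an adjusted p of 0.00781 in the exact sign-flip permutation test (n = 8). It was 21.1 points with a minimum width of 2000 bp. With both starts required inside the called peak it was 55.3 points, but narrower peaks seldom cover 2 starts, so this value depends on the width. The window too lies inside every broad peak, so the share there is not independent of the width. The difference of 32.6 points goes with the number of starts, however. Among peaks with at least 2 starts in the window, a comparison added after the data were seen, the share was 77.1% in broad and 79.8% in narrower peaks, a difference of -2.70 points (exact permutation p = 0.164). Broad peaks thus held a divergent pair more often than narrower peaks, and no such excess was detectable among peaks with at least 2 starts in the window. Among peaks that covered at least 2 starts, a divergent pair lay beneath 78.5% ± 3.55 of broad and 88.1% ± 0.639 of narrower peaks. The highest share in broad peaks was 83.0% and the lowest in narrower peaks 87.2%. Which starts a peak covers depends on its width, so these shares are a description and were not tested.

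**Figure D2:**
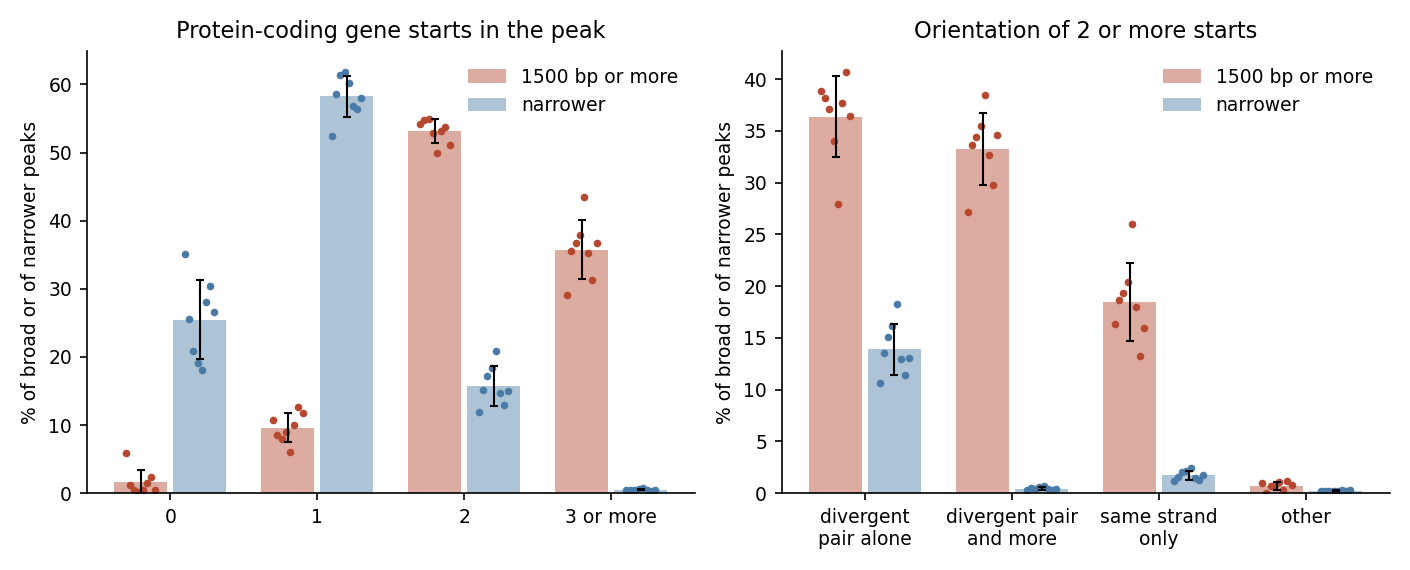
Share of the broad (red) or of the narrower (blue) peaks of a library (%) by the number of gene starts beneath (left) and by the arrangement of the starts (right); bars are means, error bars SD and points the 8 libraries. The most frequent number was 2 starts in broad peaks, with 53.1%, and 1 start in narrower peaks, with 58.2%.

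Seen from the genes, neighbouring starts were joined under a broad peak mostly when they were close together. Of 5986 pairs of neighbouring starts, 934 lay under the same broad peak in at least 1 library (15.6% of pairs) and 184 in all 8 (3.07%). Among 1546 divergent pairs, 484 (31.3%) were joined in at least 1 library and 105 (6.79%) in all 8. Among 2900 tandem pairs the counts were 400 (13.8%) and 74 (2.55%), and among 1540 convergent pairs 50 (3.25%) and 5. Starts of divergent pairs are closer to each other, with a median distance of 514 bp against 1736 bp for tandem pairs, and at a matched distance the order was not the same. At 600 to 1000 bp, 145 of 401 divergent pairs (36.2%) and 164 of 345 tandem pairs (47.5%) were joined. At 300 to 600 bp the shares were 37.0% and 34.7%, and at 1000 to 1500 bp 16.5% and 22.2%.

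In peaks over a divergent pair alone, broad peaks differed from narrower peaks both in the spacing of the genes and in their reach into them. The starts lay 611 ± 43.8 bp apart (mean over 8 libraries of the median, ± SD) in broad peaks and 304 ± 11.4 bp in narrower peaks. Past each start, into the gene, the peak reached 565 ± 29.7 bp in broad and 374 ± 15.7 bp in narrower peaks. The summit lay between the starts in 39.0% ± 5.69 of broad and 31.8% ± 7.32 of narrower peaks. Spacing and reach are parts of the width and were not tested. In both kinds most summits lay in the first 500 bp after a start, 63.6% ± 4.43 of broad and 67.0% ± 4.64 of narrower peaks.

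**Figure D3:**
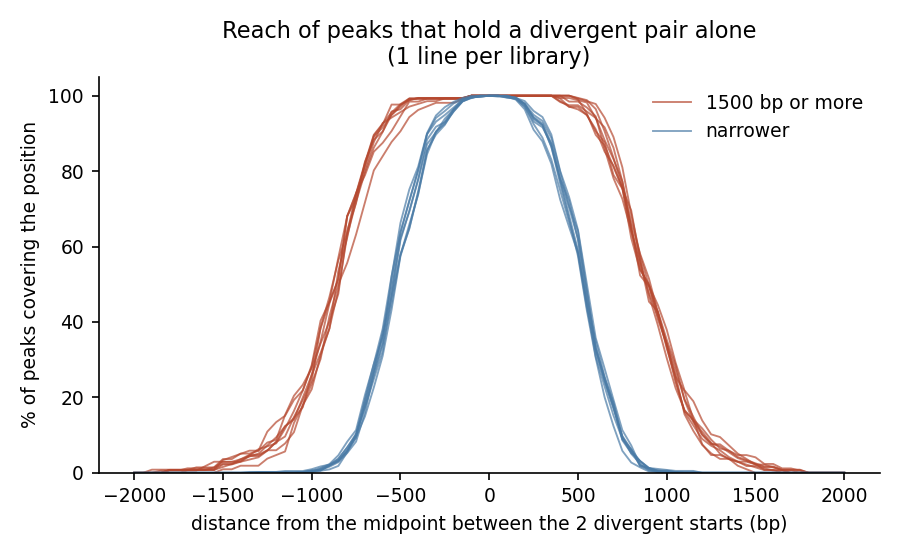
Share of peaks over a divergent pair alone (%) that cover each position, by distance from the midpoint between both starts (bp); each line is 1 of the 8 libraries. Broad peaks extend farther to both sides than narrower peaks, with starts 611 bp apart against 304 bp.

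Tandem broad peaks mostly ran across a short upstream gene. Where a broad peak held exactly 2 starts on the same strand, the upstream gene had a median length of 710 ± 56.3 bp, and the downstream gene 1339 ± 61.5 bp (SD, n = 8). The upstream gene lies between the starts unless both genes share a start, and such pairs were not left out. Of the 400 tandem pairs joined in at least 1 library, 26 had starts 0 to 300 bp apart, among them pairs with a shared start. In narrower tandem peaks these genes measured 463 ± 30.9 and 1350 ± 53.0 bp. By class, the median width was 1644 ± 25.8 bp with 1 start, 1703 ± 16.5 bp over a divergent pair alone, 1802 ± 55.9 bp over tandem starts and 2151 ± 21.9 bp over a divergent pair with more starts. Peaks with 4 or more starts reached 2779 ± 169 bp. The median fold differed less, from 2.66 ± 0.266 with 1 start to 3.09 ± 0.282 over a divergent pair with more starts.

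Broad peaks commonly enclosed entire genes. At least 1 whole protein-coding gene lay inside 63.5% ± 6.17 of broad peaks and 6.81% ± 0.668 of narrower peaks, and a library had 308 ± 75.8 genes enclosed in broad peaks. The genes whose start lay beneath a broad peak numbered 878 ± 173 per library. Their median length was 1043 ± 55.7 bp, against 1300 ± 22.7 bp for genes with a start beneath a narrower peak. The difference was -256 bp, in the same direction in 8 of 8 libraries. An interval that is wide enough to hold several starts or whole genes admits short genes by its width, so the difference is a description and no p is given for it. By library the median under broad peaks was 1122 and 1041 bp (HPRT1 YAC), 1020 and 1052.5 bp (HPRT1 integrated), 949.5 and 1023 bp (HPRT1R YAC), and 1116 and 1023 bp (HPRT1R integrated). Every one of these was below the lowest median under narrower peaks, 1263 bp.

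Across all widths the number of starts near the midpoint did not step at 1500 bp. It was 1.14 starts in peaks under 300 bp, 1.28 from 600 to under 900 bp, 1.56 from 900 to under 1200 bp, 1.72 from 1200 to under 1500 bp, 1.91 from 1500 to under 2000 bp and 1.93 from 2000 to under 3000 bp. The share with a divergent pair in the window passed from 13.2% in the narrowest to 62.8% from 1500 to under 2000 bp, was 52.6% from 2000 to under 3000 bp and 13.0% in the 122 peaks of 3000 bp or more, of which a library held 9 to 23. In those widest peaks the midpoint window covers only the central part of the interval, and it held 1.19 starts of the 3.27 ± 0.419 beneath the whole peak. Next to the limit, the 749 peaks of 1400 to under 1500 bp held 1.67 starts and 52.9% had a divergent pair in the window. The 559 peaks of 1500 to under 1600 bp held 1.74 starts, with 53.3%. Their median folds were 2.84 and 2.78.

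**Figure D4:**
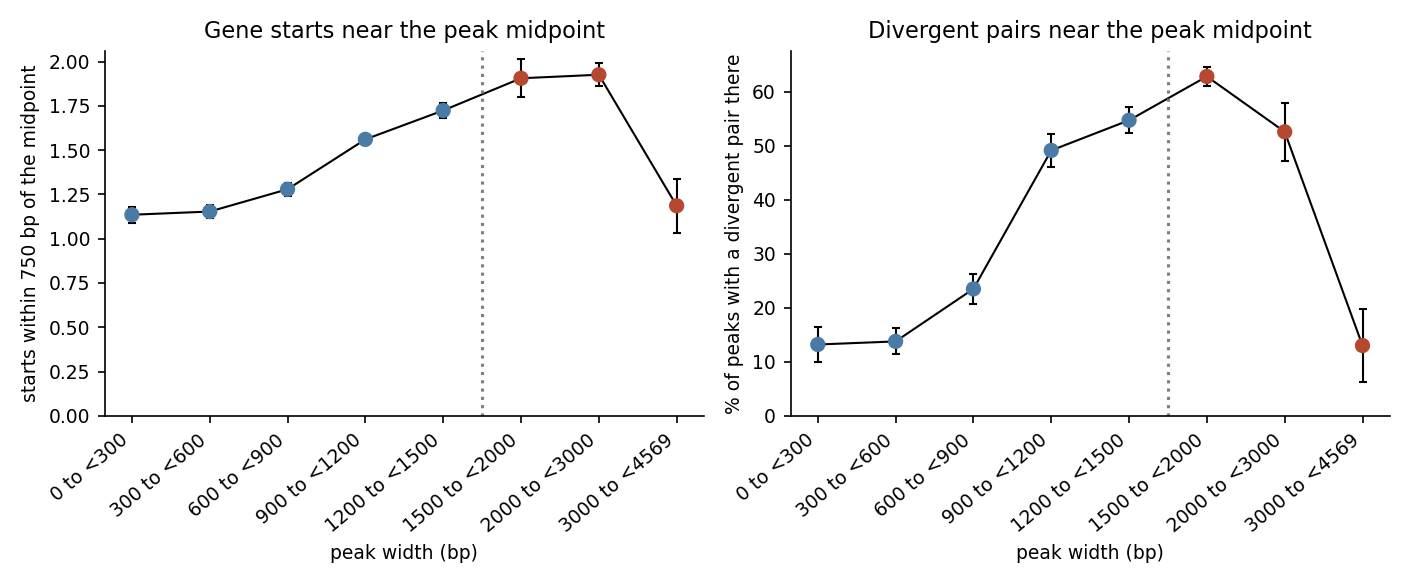
Starts within 750 bp of the peak midpoint and share of peaks with a divergent pair in that window (%), by peak width (bp); points are means over the 8 libraries with SD and the dotted line marks 1500 bp. Both measures climb across the limit without a step, to 1.91 starts and 62.8% from 1500 to under 2000 bp, and are at 1.19 starts and 13.0% in the 122 widest peaks.

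Broad peaks with few starts formed a small group of their own. The 288 broad peaks with a single start extended 842 ± 27.5 bp into the gene and 887 ± 40.5 bp upstream of it, against 398 ± 19.99 and 119 ± 20.5 bp in narrower peaks with a single start (SD, n = 8). In 42.9% ± 9.84 of them another start lay within 300 bp outside the peak, against 13.0% ± 2.01 of narrower peaks. Another 42 broad peaks, at 22 places, held no start. Of these peaks, 10 lay in the stretch of chromosome XII around the ribosomal DNA, whose repeats are collapsed in the reference, so copies cannot be told apart. A further 31 lay inside a gene at 19 places, beginning 1 to 106 bp past its start (median 38 bp), in genes of 1692 to 5383 bp. At 17 of these places the gene shares its start with another annotated open reading frame and measures 5269 to 5383 bp, nearly always 5269 bp. Whether reads there could be assigned to a single gene was not tested. The remaining places were in PDC1, for pyruvate decarboxylase, and PUT4, for the proline permease. HPRT1 YAC replicate 1 held 18 of the 42 peaks, 17 of them inside a gene. At the places inside a gene the other libraries had peaks too, except HPRT1R YAC replicate 1 in PUT4, and many were just under 1500 bp. In YBL005W-B, for instance, the peak measured 1531 bp in HPRT1 YAC replicate 1 and 1331 to 1487 bp in the others.

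The broad peaks of the 8 libraries merged into 689 loci, and the extremes of recurrence were the most frequent. A broad peak was present in 1 library at 138 loci (20.03%) and in all 8 at 139 (20.17%), and between 53 and 92 loci had each number from 2 to 7. Recurrent loci were wider and higher, with a median width of 1602.5 bp and a median fold of 2.44 at loci broad in 1 library, and 2076 bp and 3.14 at loci broad in all 8. A divergent pair lay under 54.3% of the former and 86.3% of the latter, against 67.5% of all 689 loci. Recurrence counts the libraries that reached 1500 bp, so loci well above that width recur by construction. Width and fold were averaged over those libraries only. A locus is the union of its broad peaks, so it can take in more starts as more libraries merge. These values are therefore a description and were not tested. Of the 138 loci in a single library, 40 came from HPRT1R YAC replicate 1 and 38 from HPRT1 integrated replicate 2, and the others gave 2 to 20 each. Chromosome ends contributed little: 2 loci lay within 20 kb of an end.

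Where a locus was not broad, the chromatin was nearly always still called, in narrower pieces. Among the 2480 combinations of a locus and a library without a broad peak, 1504 (60.6%) held several narrower peaks, 975 (39.3%) a single narrower peak and 1 no peak. The widest narrower piece measured at least 1200 bp in 1118 cases (45.1%). Peaks covered a median of 94.0% of the locus in broad cases, 82.0% with a single narrower peak and 77.7% with several. The summit of a broad peak fell under some peak of another library in 99.7% ± 0.477 of cases (SD over 56 ordered pairs of libraries, which reuse the same 8 libraries) and under a broad peak in 70.8% ± 10.9. Within the same group the second share was 73.5% ± 8.98 over 8 pairs. For narrower peaks the summit fell under a peak of another library in 90.8% ± 3.34 of cases.

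The widest loci broad in all 8 libraries spanned 1 to 6 gene starts. TAR1, a small gene antisense to ribosomal RNA, lay under the widest, on chromosome XII from 451657 to 455486, at 3580 ± 138 bp (SD, n = 8). It lies in the ribosomal DNA repeat, where reads cannot be assigned to a copy, and its fold of 1.92 ± 0.133 was below the median of 3.14 over the 139 loci broad in all 8. Next came the peak over BEM2, COG3 and MYG1 on chromosome V from 481887 to 485207. COG3 encodes a subunit of a Golgi tethering complex. Its widths were 3133 and 3286 bp (HPRT1 YAC), 3127 and 3266 bp (HPRT1 integrated), 2947 and 3257 bp (HPRT1R YAC), and 3298 and 3321 bp (HPRT1R integrated). HPRT1R YAC replicate 1 was the shortest, and both HPRT1R integrated libraries were above the other 6.

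Of the other loci of this width, several held a ribosomal protein gene. RPL24A and RPL30, which encode proteins of the large ribosomal subunit, and CGR1, for an rRNA processing factor, lay under a peak of 3043 ± 108 bp on chromosome VII from 437450 to 440627, with a fold of 3.54 ± 0.429. MPM1, DLS1, MRPL8 and COA3 lay under 3042 ± 207 bp on chromosome X from 313569 to 317049. MRPL8 encodes a mitochondrial ribosomal protein, COA3 a cytochrome oxidase assembly factor and DLS1 a subunit of an ISW2 remodelling complex. SVL3, PHO85 and TRM44 lay under 3025 ± 85.6 bp on chromosome XVI from 490846 to 494014. PHO85 encodes a cyclin-dependent kinase and TRM44 a tRNA methyltransferase. RAD4, GCG1 and CHD1 lay under 2950 ± 61.0 bp on chromosome V from 502661 to 505685, where RAD4 serves nucleotide excision repair and CHD1 encodes a chromatin remodeller.

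Some loci had a steady extent and others were wide only in some libraries. At GBP2, SGF29, ILV6, STP22 and VMA9, on chromosome III from 102835 to 107425, the widest peak measured 4101 and 4568 bp (HPRT1 YAC), 1812 and 2447 bp (HPRT1 integrated), 1820 and 4392 bp (HPRT1R YAC), and 2247 and 2241 bp (HPRT1R integrated). Of the YAC libraries 3 therefore carried an unbroken peak of at least 4101 bp, whereas HPRT1R YAC replicate 1 and the 4 integrated libraries had 2 or 3 pieces, and peaks covered at least 82.2% of the locus in each library. GBP2 encodes an mRNA export factor, SGF29 a subunit of SAGA, ILV6 the regulatory subunit of acetolactate synthase, STP22 an ESCRT component and VMA9 a vacuolar ATPase subunit. On chromosome XV from 866137 to 870311, a locus with 6 starts had widths of 2060 and 2193 bp (HPRT1 YAC), 2288 and 3946 bp (HPRT1 integrated), 3956 and 3954 bp (HPRT1R YAC), and 2151 and 3966 bp (HPRT1R integrated). The 4 libraries at 2060 to 2288 bp had 2 peaks there that covered 88.1 to 92.3% of the locus. It holds RPS10A, for a protein of the small subunit, RRS1, for an assembly factor of the large subunit, and UAF30, for an RNA polymerase I upstream activation factor, besides YOR292C, YOR293C-A and YOR296W.

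Both RPL42A with CBK1, on chromosome XIV from 329521 to 333201, and NAT2 with RPL24B, on chromosome VII from 785282 to 788836, varied in the same way. RPL42A and RPL24B encode proteins of the large ribosomal subunit, and CBK1 a kinase of polarised growth. The RPL42A locus measured 2209 to 3513 bp with a median of 3070.5 bp, and the RPL24B locus 1588 to 3460 bp with a median of 3304 bp. In each of them HPRT1 YAC replicate 1 and HPRT1R integrated replicate 1 were among the short libraries.

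The other loci with the most starts held 5 each. RPS8A, YBL071C-B, KTI11, YBL071C and AST1, on chromosome II from 88423 to 91270, shared a peak of 2688 ± 47.0 bp. RPS8A encodes a protein of the small ribosomal subunit and KTI11 a factor in diphthamide synthesis. KRR1, ADF1, FYV5, MIC10 and PRD1, on chromosome III from 22630 to 25228, shared 2499 ± 114 bp, where KRR1 serves assembly of the small subunit, MIC10 shapes mitochondrial cristae and PRD1 encodes an oligopeptidase. KRE29, FMP49, HVG1, YER039C-A and GLN3, on chromosome V from 227936 to 230440, shared 2264 ± 233 bp with a fold of 4.01 ± 0.693. KRE29 encodes a subunit of the Smc5/6 complex and GLN3 an activator of nitrogen-regulated genes. Some open reading frames in these clusters overlap, so that their separate starts count the same stretch of chromatin.

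The highest peaks were not the widest. The highest mean fold, 4.64 ± 0.587 (SD, n = 8), belonged to HBS1, MRPL20 and PRP16 on chromosome XI from 598310 to 600487, at 2044 ± 56.6 bp. HBS1 acts in ribosome rescue, MRPL20 encodes a mitochondrial ribosomal protein and PRP16 a splicing helicase. The fold there was 4.31 and 4.54 (HPRT1 YAC), 5.34 and 4.71 (HPRT1 integrated), 3.57 and 4.86 (HPRT1R YAC), and 4.42 and 5.38 (HPRT1R integrated), lowest in HPRT1R YAC replicate 1. PSR1, COX17 and DRS1, on chromosome XII from 129940 to 132403, had a fold of 4.57 ± 0.840. COX17 encodes a copper chaperone for cytochrome oxidase and DRS1 a helicase of ribosome assembly.

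MRPL13, MEH1 and RSC4, on chromosome XI from 450744 to 452800, had a fold of 4.48 ± 0.479. MEH1 encodes a component of the EGO complex, which anchors nutrient signalling at the vacuole, and RSC4 a subunit of the RSC remodeller. EMG1 and SKG3, on chromosome XII from 522286 to 525229, had 4.45 ± 0.563, where EMG1 methylates ribosomal RNA. MAS2, THR1 and VMA16, on chromosome VIII from 158650 to 161187, had 4.35 ± 0.500 and an even width of 2490 ± 39.5 bp. MAS2 encodes a mitochondrial processing peptidase subunit, THR1 homoserine kinase and VMA16 a vacuolar ATPase subunit.

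**Figure D5:**
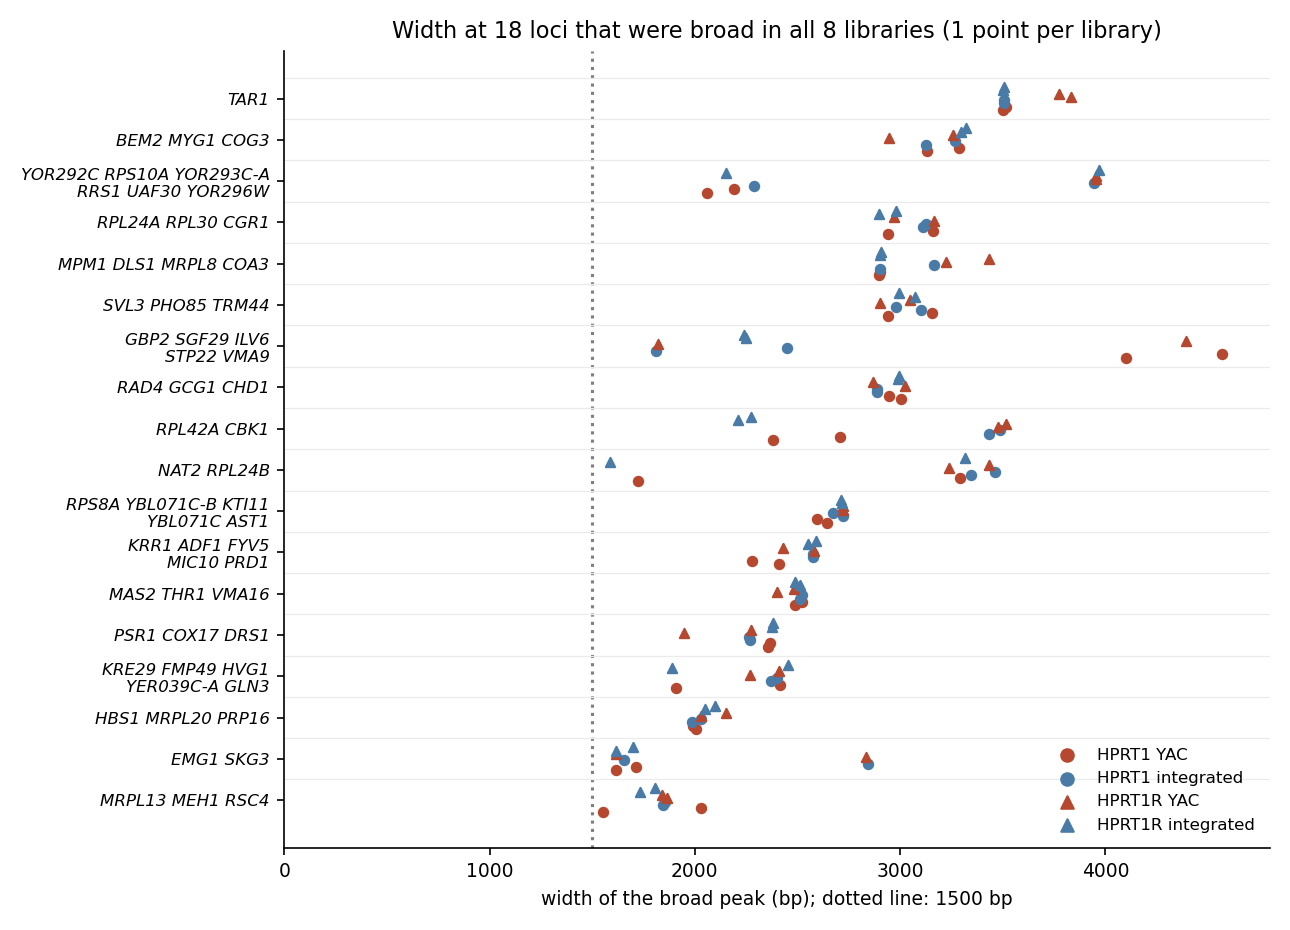
Width of the widest peak (bp) in each of the 8 libraries at the 18 named loci; red, YAC; blue, integrated; circle, HPRT1; triangle, HPRT1R. Most loci kept their width, such as MAS2 THR1 VMA16 at 2490 ± 39.5 bp, while GBP2 to VMA9 ranged from 1812 to 4568 bp.

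The gene lists differed in how many members lay beneath broad peaks, and their counts are given beside those of all genes, without a test. Of all 6002 genes, 1615 (26.9%) had their start under a broad peak in at least 1 library, 320 (5.33%) in all 8, and 3044 (50.7%) had it under any native peak in all 8. Among 138 genes of cytosolic ribosomal proteins, 89 (64.5%) had a start under a broad peak in at least 1 library and 19 (13.8%) in all 8, among the latter RPL11A, RPL13B, RPL15B and RPL17B. The list was taken by symbol and also holds RPP1, for a subunit of RNase P, which was beneath a broad peak in 0 libraries. The listed genes are short, with a median of 771 bp against 1200 bp for all genes, and many exist as near-identical pairs, whose reads may be split or dropped. Of 67 mitochondrial ribosomal protein genes, 26 (38.8%) were beneath a broad peak in at least 1 library and 4 in all 8, which were MRP21, MRPL13, MRPL20 and MRPL8. Of 34 proteasome genes, 16 (47.1%) were beneath 1 in at least 1 library, and PRE2, RPN10 and RPN12 were in all 8. The start lay under any native peak in all 8 libraries for 77.5% of the cytosolic ribosomal protein genes. This share was 82.1% for the mitochondrial ribosomal protein genes and 88.2% for the proteasome genes, all above the 50.7% of all genes. How far the counts under broad peaks follow from being marked at all was not tested.

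Of 81 genes of amino acid synthesis, 28 (34.6%) were beneath a broad peak in at least 1 library and 8 in all 8, including ARO2 of the shikimate pathway, HIS3 of histidine synthesis, LEU4 of leucine synthesis and MET30, a regulator of the methionine genes. LEU2 had its start under a native peak in 4 libraries and MET17 in 0. Whether marker loci such as HIS3, LEU2 and MET17 are intact in these strains was not examined. Of 11 purine genes, 6 were beneath 1 in at least 1 library, and ADE57, ADE6 and ADE8 were in all 8. Of 53 ribosome assembly genes, 12 (22.6%) were beneath 1 in at least 1 library and 0 in all 8, with RRP40 and UTP15 in 7. Of 28 translation factor genes, 9 (32.1%) were so and 0 in all 8, with SUI1, an initiation factor, in 7. The share with a start under any native peak in all 8 was 59.3% for amino acid synthesis and 63.6% for the purine genes. It was 73.6% for ribosome assembly and 78.6% for the translation factors.

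Of 17 glycolytic genes, 6 (35.3%) were beneath a broad peak in at least 1 library and FBA1, for aldolase, in all 8, with PGK1 in 6, yet only 2 of the 17 had a start under any native peak in all 8. Among 10 histone genes, HHO1, for the linker histone, and HTZ1, for the variant H2A.Z, were beneath a broad peak in all 8 libraries, and none of the 8 core histone genes was in any. HHT2 was under some peak in 8 libraries and HTB1 in 7. Of 24 heat shock chaperone genes, 3 were beneath a broad peak in at least 1 library, of 33 genes of meiosis and sporulation 1, SPO7, and of 16 hexose transporter genes 0. The hexose transporter genes were not under any native peak in all 8 libraries either. Only 5 (20.8%) of the chaperone genes and 4 (12.1%) of the genes of meiosis and sporulation were, against 50.7% of all genes. Few members of these lists were thus steadily marked at any width. Of 8 genes of COMPASS itself, 2 (25%) were beneath a broad peak in at least 1 library, near the 26.9% of all genes. These were SWD3, in 8 libraries, and SHG1, in 6. For 87.5% of the COMPASS genes the start lay under any native peak in all 8.

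The number of broad peaks was not shown to differ between the configurations or between the sequences. YAC libraries had 345 ± 30.8 broad peaks (SD, n = 4) and integrated libraries 416 ± 72.1, a difference of -71 peaks (exact two-sided permutation test, p = 0.2, adjusted p = 0.4). HPRT1R libraries had 359 ± 22.3 and HPRT1 libraries 402 ± 88.0, a difference of -43.5 peaks (exact permutation p = 0.4, adjusted p = 0.4). With 4 libraries against 4, the smallest p is 0.0286. The HPRT1 integrated libraries, at 474.5 ± 34.6 (n = 2), were above all others, and the difference between YAC and integrated was -144.5 peaks for HPRT1 and 2.5 for HPRT1R. These effects differed by 147 peaks (exact permutation of the configuration labels within each sequence, p = 0.111, smallest possible 0.0556). Without HPRT1 YAC replicate 2, whose labels disagree, the differences were -74 and -59.6 peaks, and without HPRT1R YAC replicate 1 they were -82.7 and -50.6. The HPRT1 integrated libraries also had the lowest expected pileups, 76.2 and 76.5, and the widest median native peaks, 664 and 699 bp, and the part of depth in the count was not tested.

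At single loci, 20 of 689 were broad in 3 or 4 integrated and no YAC libraries, and 3 in 3 YAC and no integrated libraries, together 3.34%. The widths of the configurations did not overlap at 49 loci (7.11%), and 482 loci were broad in both. OLA1, for a conserved ATPase, and STE4, for the beta subunit of the pheromone receptor G protein, were the loci broad in all 4 integrated and no YAC libraries. They were chosen after their values were seen. At OLA1 the widths were 1483, 1491, 1370 and 1443 bp in YAC libraries and 1697, 1729, 1705 and 1709 bp in integrated libraries. At STE4 they were 560, 1127, 1411 and 1356 bp against 1511, 1521, 1535 and 1554 bp. The reverse was seen at HMX1, for heme oxygenase, and ENT2, for an endocytic adaptor, with 1999, 1948, 1466 and 1510 bp in YAC and 1226, 1185, 1318 and 1251 bp in integrated libraries. These loci were picked from 689 by their widths, so they are given as a description.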

How the data were processed

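Per the labels' extraction protocol, H3K4me3 was profiled by CUT&RUN in 8 libraries of 16 samples, whose titles say ChIP; the 8 IgG samples were not analysed here. Per the submitters' processing notes, the authors used MACS2 2.1.0, Bowtie2 2.2.9, deepTools 3.5.0, bcl2fastq 2.20 and SAMtools 1.9, and the build sacCer3. For the caller, neither settings nor control library is given in the sources used here. The authors deposited for each peak a fold (ratio of observed to expected pileup), p-values and q-values as −log10, and a score. These were used only to describe peaks within a list. Observed and expected pileups were solved from the deposited fold and p-value, and 99.7 to 99.8% of native peaks matched within 0.001 in −log10 p. The expected pileup given for a library is a low quantile over its peaks, not their median.

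Widths were taken from the intervals. Gene lists were taken by symbol, mostly by prefix. Gene starts are annotated coding starts of 6002 nuclear protein-coding genes in the RefSeq table of assembly R64, which sacCer3 names, with strand read from systematic names; 84 genes share a start at 42 positions and were counted separately. A start was beneath a peak when it lay inside the interval. Genes for tRNA and snoRNA were counted when any part of them overlapped a peak. Loci are unions over libraries of broad peaks overlapping by 1 bp. Named loci are those broad in all 8 libraries with the 10 largest mean widths, the 5 largest numbers of starts and the 5 highest mean folds; genes named there have a start under a broad peak in at least 5 libraries. List members named are at most 4 per list, those beneath broad peaks in most libraries, then by symbol; others named were chosen after their values were seen. The members, the 13 gene lists and the tests were chosen with earlier results of these data known.

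Comparisons of broad and narrower peaks used exact two-sided sign-flip permutation tests over 8 libraries, adjusted by Benjamini-Hochberg over 4 measures, of which starts per kb and gene length depend on the width and are given as descriptions, and group comparisons exact permutation tests of 4 against 4 libraries, adjusted over 2. The code for both was checked on simulated peaks and genes with known answers, and error rates were not simulated. The window measures are not independent of the width either, since the window lies inside every broad peak. Alternatives were another minimum width, a stricter peak threshold, joined peaks, trimmed chromosome ends and ribosomal DNA, other gene sets and libraries left out. Python 3.11.15, numpy 2.4.6, pandas 2.3.3, scipy 1.17.1 and matplotlib 3.10.9 were used.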

Additional observations from a re-analysis of the deposited data

Results flagged for a closer look

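Of 54 sets of 4 or 8 libraries compared on counts and shares of broad peaks, 8 had a library whose gap to the nearest other exceeded Dixon's 95% critical value. For independent sets of normally distributed values, chance gives about 1 such library in 20 sets. These sets reuse the same 8 libraries and related measures of the same peaks, so the number of flags cannot show an excess. HPRT1 YAC replicate 1 held 18 broad peaks without a gene start, against at most 8 in the other libraries. Among the integrated libraries, HPRT1R integrated replicate 1 held 8, against at most 2. Where such a peak lay inside a gene, the other libraries mostly had a peak there too, often just under 1500 bp. HPRT1R YAC replicate 1 had the lowest share of broad peaks over a divergent pair alone among the YAC libraries, 27.9% against at least 37.6%. The same library had the highest share of broad peaks that enclosed a whole gene among all 8, 76.1% against at most 65.1%. This share was lowest among the integrated libraries in HPRT1R integrated replicate 1, 56.6% against at least 63.8%. The widest broad peak of HPRT1R integrated replicate 2 measured 3966 bp, against at least 4151 bp in the other integrated libraries. HPRT1 YAC replicate 2 had 0 tRNA genes beneath a broad peak and each other library had 1, which met the criterion both among all 8 libraries and among the YAC libraries. As the other libraries were tied, any departure would have met it.

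Intervals of at least 1500 bp also occurred outside the native chromosomes. On the contig of the synthetic DNA the 8 libraries held 50 of them among 445 peaks: 8 and 8 (HPRT1 YAC), 3 and 4 (HPRT1 integrated), 15 and 9 (HPRT1R YAC), and 1 and 2 (HPRT1R integrated). None of the 195 mitochondrial peaks was as wide.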

How the results depend on the processing

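The number of loci broad in all 8 libraries followed the minimum width, from 139 at 1500 bp to 535 at 1000 bp and 37 at 2000 bp. When a library was left out, 140 to 172 loci were broad in all the remaining libraries, which is a less strict criterion. At 2000 bp, the MRPL13 locus was broad in 1 library and the EMG1 locus in 2. The excess of divergent pairs turned to -2.70 points (p = 0.164, exact permutation) among peaks with at least 2 starts in the window, a comparison added after the data were seen, as were the windows around the summit and the restriction to peaks with a start. With a library left out, the differences ranged from -0.264 to -0.245 starts per kb, 0.584 to 0.609 starts in the window, 32.1 to 33.8 points for divergent pairs and -273 to -238 bp for gene length, with an exact permutation p of 0.0156 for the window and for divergent pairs, and from -96.7 to -43.3 broad peaks for YAC against integrated and -75.6 to -11.25 for HPRT1R against HPRT1. Sizes moved by over 1.5 times, in the same direction, under 4 alternatives: the divergent difference of 32.6 points was 55.3 with both starts inside the called peak and 21.1 at 2000 bp, the window difference of 0.591 starts was 0.393 around the summit, and the density difference of -0.258 starts per kb was -0.528 among peaks with a start. Which starts a called peak covers depends on its width, so the 55.3 points are a description. The differences in the number of broad peaks were -138 and -59.25 at 1000 bp and -32.25 and -16.75 at 2000 bp. The remaining alternatives left direction and side of the threshold as they were. Replicate numbers did not pair the samples in a constant direction (correlations of deviations between groups from -0.252 to 0.221 over 689 loci). Whether libraries of different groups share a factor regardless of their number was not tested. With a replicate block, the differences of -71 and -43.5 peaks had p = 0.222 and 0.444 (exact permutation within numbers, smallest possible 0.0556), and no call changed. Peak lists limit depth to the recovered pileups.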

Other observations

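Genes for non-coding RNA were unevenly represented beneath broad peaks. Here a gene was counted when any part of it overlapped a peak, not by its start. Of 275 nuclear tRNA genes, 0 or 1 per library lay beneath a broad peak and 0 to 4 beneath a narrower peak. Of 76 snoRNA genes, 10.3 ± 5.90 (SD, n = 8) lay beneath a broad peak and 15.1 ± 1.64 beneath a narrower peak. Per 100 kb of peak, these are 1.30 ± 0.646 snoRNA genes in broad and 0.698 ± 0.0776 in narrower peaks, but the order was the reverse in HPRT1 YAC replicate 1 (0.504 and 0.696) and in HPRT1R integrated replicate 1 (0.605 and 0.710). The number under broad peaks ranged from 3 in HPRT1 YAC replicate 1 to 19 in HPRT1R YAC replicate 1.

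Broad peaks were spread over all 16 chromosomes. Their density was lowest on chromosome I, at 1.60 ± 0.524 per 100 kb (SD, n = 8), and on chromosome VI, at 2.27 ± 0.671, which are the shortest chromosomes. It was highest on chromosomes V and IX, at 3.51 ± 0.774 and 3.51 ± 0.502. Chromosome III, with 3.16 ± 0.561, was near the others. These densities were not tested.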
